A study of Mus musculus with 36 samples.

Results

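The transcripts described here are the 10 genes of the Hippo pathway and its transcriptional output that were listed by name: the coactivators Yap1 and Wwtr1, the DNA-binding factors Tead1, Tead2, Tead3 and Tead4, the kinases Lats1 and Lats2, and the regulators Amotl2 and Ajuba. They were found by mapping the Ensembl mouse identifiers of the count table to symbols, and all 10 were present among its 49671 gene rows. All 10 were also among the 17702 genes with enough reads to be tested. The study cultured wild-type mouse embryonic stem cells (mESCs, strain and genotype given as 129m wt) on StemBond hydrogels and sequenced total RNA. These hydrogels are made of polyacrylamide to which matrix protein, here fibronectin, is linked covalently, and were either soft or stiff. At 24 h there was a soft and a stiff group, both in serum + LIF. At 48 h there were soft and stiff groups in each of 4 media (serum with both LIF and PD03, with either of them, or with neither), and a group on tissue culture plastic in serum + LIF. LIF is a cytokine that acts through STAT3 to maintain pluripotency, and PD03 inhibits MEK, the kinase that activates ERK. Each of the 11 groups had 3 libraries except the soft gel in serum + PD03, which had 6, giving 36 in all.

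The Hippo pathway is a kinase cascade in which MST kinases activate LATS kinases, and LATS kinases phosphorylate the coactivators YAP and TAZ so that they are held in the cytoplasm or degraded. Unphosphorylated YAP and TAZ enter the nucleus and bind TEAD factors, which recognise the M-CAT element CATTCC and have no strong activating domain of their own. Cell shape, actin tension and substrate stiffness are known inputs to YAP and TAZ localisation, and in the early mouse embryo YAP and TEAD4 switch on trophectoderm genes in the outer cells. RNA-seq measures none of this localisation or phosphorylation, only the transcript of each component.

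Between 10405696 and 26635239 reads were assigned to genes per library. Nothing in the labels says that the libraries of a group came from separate cultures, so p-values measure the spread between these libraries, which may be technical. In bulk RNA, fewer cells of a type and less transcript per cell cannot be told apart. The summed level of 7 pluripotency markers (Pou5f1, Sox2, Nanog, Esrrb, Zfp42, Klf4 and Tfcp2l1) ran from 1924 to 4001 CPM (counts scaled to a common library size) over the libraries, whereas 8 fibroblast markers summed to between 22.4 and 91.5 CPM, with Col3a1, Postn, Lum, Dcn and Twist2 below a mean of 1 CPM. The code in the sample descriptions takes 3 forms, called pools here. Pool 1 holds both 24 h groups, plastic and 1 of the 3 stiff serum + LIF libraries at 48 h, pool 2 holds the other stiff 48 h libraries and 2 of the 6 soft serum + PD03 libraries, and pool 3 holds the remaining soft 48 h libraries. Thus soft and stiff gels at 48 h lay almost wholly in different pools, and pool and substrate can hardly be told apart there, whereas the 24 h comparison lay within 1 pool. The columns of the count table name the group of a library but not its number, so a pool term was fitted for each of the 45 possible assignments.

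All 10 transcripts were detected in every library, from 48 reads (Lats2) to 13313 reads (Tead1) in a single library. To compare genes with each other, CPM was divided by the length of the union of annotated exons (RPKM). Averaged over the 11 groups, Ajuba, a LIM-domain scaffold that inhibits LATS kinases, had the highest level of the 10 at 46.8 RPKM. Tead1 followed with 29.4, Amotl2 with 28.6, Tead2 with 20.3, Wwtr1 with 18.04 and Yap1 with 16.2 RPKM. Tead4 at 7.89 RPKM and Lats1 at 5.44 RPKM were lower, and Tead3 at 1.44 and Lats2 at 1.43 RPKM were the lowest. The neighbouring averages of Tead1 and Amotl2, of Wwtr1 and Yap1, and of Tead3 and Lats2 lay within each other's ranges over groups, which were 22.2 to 38.9 RPKM for Tead1, 15.7 to 45.9 for Amotl2, 10.5 to 29.6 for Wwtr1, 13.9 to 18.2 for Yap1, 0.998 to 1.81 for Tead3 and 0.639 to 2.69 for Lats2. The order also changed between groups. On the stiff gel with PD03 the mean of Amotl2 (43.5 RPKM without and 45.9 with LIF) was above that of Ajuba (39.2 and 38.3 RPKM), and at 48 h without PD03 Tead4 (3.67 to 4.28 RPKM) was below Lats1 (5.34 to 5.57 RPKM).

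How far a transcript moved across the culture conditions differed between the genes. The highest group mean CPM was 4.21 times the lowest for Lats2, 3.75 times for Tead4, 2.93 times for Amotl2 and 2.82 times for Wwtr1. It was 1.82 times the lowest for Tead3, 1.75 times for Tead1, 1.47 times for Ajuba, 1.31 times for Yap1, 1.24 times for Tead2 and 1.19 times for Lats1. The stiff gel in serum + LIF + PD03 held the highest mean of Wwtr1, Tead1, Tead4, Lats1, Lats2 and Amotl2.

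**Figure D1:**
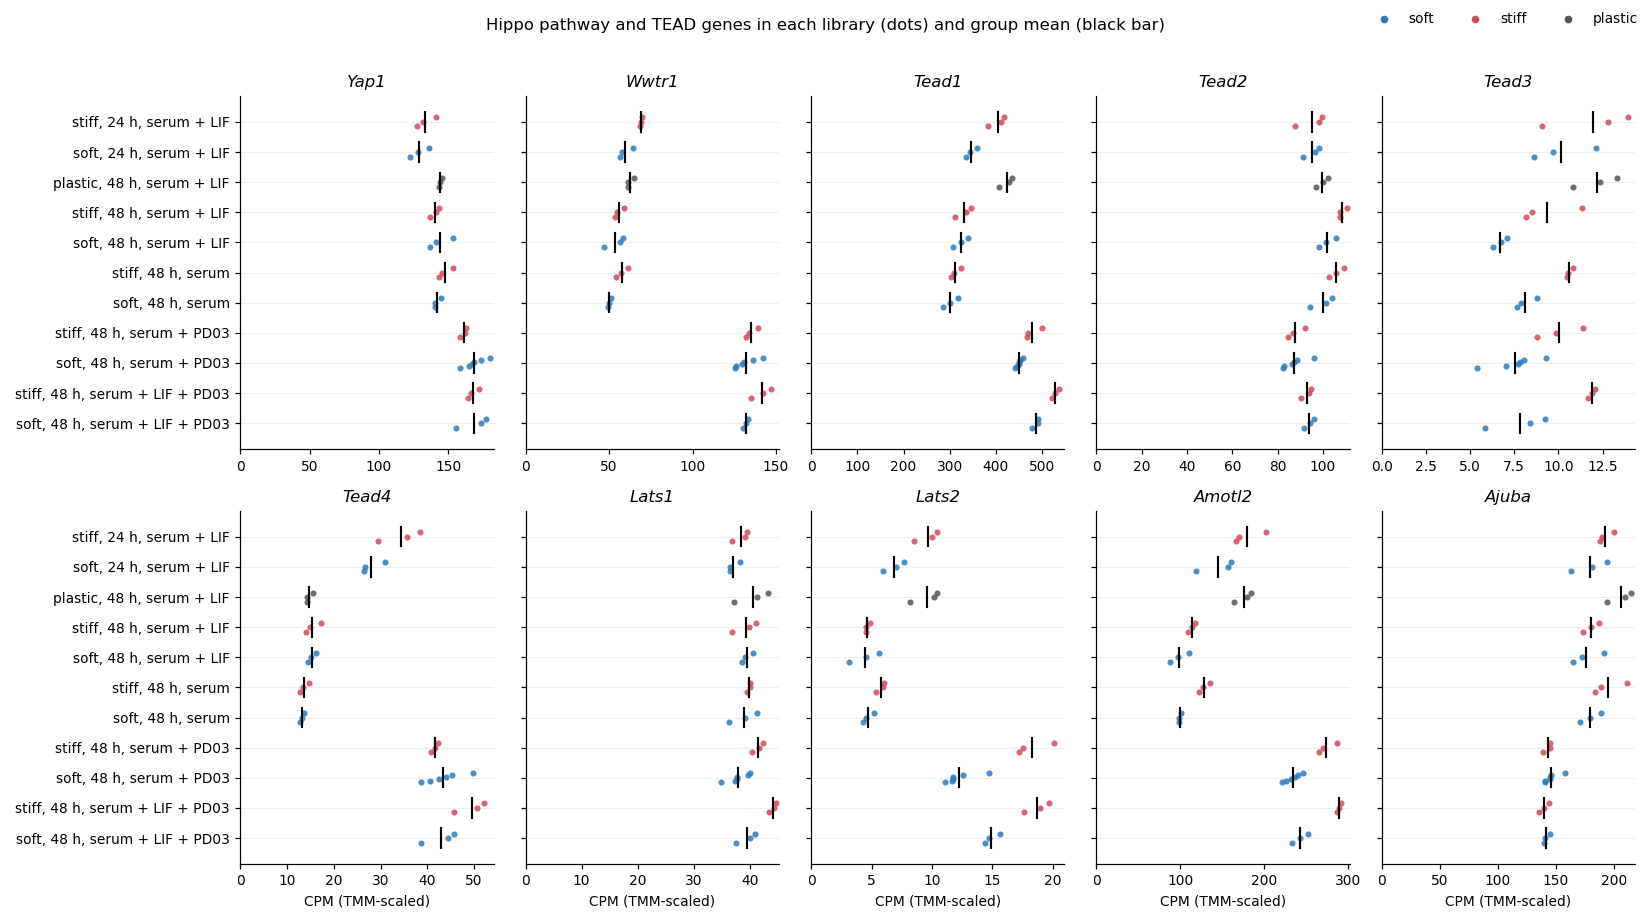
Each panel plots the TMM-scaled CPM of 1 gene (horizontal axis, from 0) in each library (points) of the 11 groups (rows), with a black bar at the group mean and colours for soft, stiff and plastic. Lats2, Tead4, Amotl2 and Wwtr1 stand highest in the 4 groups with PD03, whereas Lats1 stays between 34.96 and 44.8 CPM in all 36 libraries.

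The promoters of the genes that carry the CATTCC element are shown because TEAD factors are themselves among the genes measured. RefSeq promoters (GRCm38.p6) were on hand for 8 of the 10 genes (Tead1 and Tead4 were not matched), and the 250 bases before each start were searched for CATTCC on both strands. Of the 8, Yap1, Wwtr1, Tead3, Amotl2 and Ajuba held the 6 letters, and Tead2, Lats1 and Lats2 did not. Among all 32851 promoters of the same length, 12.6% held them. That share is per promoter, whereas a gene was counted if any of its promoters matched. Wwtr1, Tead3 and Lats2 had more than 1 promoter, so the values are not in like units. The windows of 30 bases around a match follow, 5′ to 3′ on the strand of the gene, with capitals marking CATTCC or its reverse complement GGAATG.
Yap1, chr9:8004720-8004749, minus strand: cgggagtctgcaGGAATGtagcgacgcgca
Wwtr1, chr3:57576029-57576058, minus strand: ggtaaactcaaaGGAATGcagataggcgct
Tead3, chr17:28350970-28350999, minus strand: gacgacgagcgaGGAATGgggtgcgcggga
Amotl2, chr9:102717727-102717756, plus strand: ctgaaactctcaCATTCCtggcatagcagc
Ajuba, first match, chr14:54577830-54577859, minus strand: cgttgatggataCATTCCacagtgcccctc
Ajuba, second match, chr14:54577808-54577837, minus strand: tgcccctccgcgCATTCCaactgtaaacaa
The match began 141 bases before the start in Yap1, 136 in Wwtr1, 182 in Tead3 and 65 in Amotl2, and the matches of Ajuba began 186 and 164 bases before it. An alternative start of Tead3 had a pair of further matches, 123 and 114 bases before it. The 250 bases of Amotl2 lay within the annotated span of the gene, and 136 of them were in its exons. In the alternative Tead3 stretch 217 bases were in Tead3 exons, in the first Tead3 stretch 12, and in that of Yap1 17 were in exons of Gm45494. The AP-1 letters TGANTCA, found on either strand in 6.75% of all promoters, and the CArG box bound by SRF, found in 1.47%, were in none of the 8. The ETS letters CCGGAA, found in 12% of all promoters, matched only in Tead3, 112 bases before its alternative start. A match is a run of letters and does not show that a factor binds there.

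Wwtr1 and Ajuba are printed over the whole 250 bases, since both hold CATTCC and their transcripts moved in opposite directions with PD03, as described for each gene. The capitals mark the same letters. The Wwtr1 stretch has a G + C content of 61.6% and that of Ajuba 50.8%, against a median of 52.4% over all promoters, and neither overlaps an annotated exon.
Wwtr1, chr3:57575911-57576160, minus strand: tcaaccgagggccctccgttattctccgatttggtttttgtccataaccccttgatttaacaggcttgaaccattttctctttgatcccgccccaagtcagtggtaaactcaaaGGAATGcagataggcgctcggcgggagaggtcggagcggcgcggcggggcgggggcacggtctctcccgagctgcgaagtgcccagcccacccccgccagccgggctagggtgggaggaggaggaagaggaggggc
Ajuba, chr14:54577662-54577911, minus strand: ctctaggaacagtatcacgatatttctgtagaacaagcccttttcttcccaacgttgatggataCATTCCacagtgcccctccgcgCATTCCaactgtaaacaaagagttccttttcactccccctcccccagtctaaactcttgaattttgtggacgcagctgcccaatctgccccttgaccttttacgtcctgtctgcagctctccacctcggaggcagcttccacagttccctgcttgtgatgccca

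The first question was which of these transcripts differed between soft and stiff gels. A gene was called at an adjusted p below 0.05 (edgeR quasi-likelihood test, Benjamini-Hochberg adjustment over the 17702 genes), and every log2 fold change is soft minus stiff. In serum + LIF at 24 h, 5 of the 10 were lower on the soft gel and none was higher, against 3.55% of all tested genes called in either direction and 2.52% called lower. In serum at 48 h it was 1 lower of 10, against 4.85% of all genes called and 2.77% lower. With PD03 alone it was 2 lower of 10 (5.55% of all genes called, 3.42% lower), and with LIF and PD03 together also 2 lower (7.61% called, 4.82% lower). In serum + LIF at 48 h no member was called by edgeR or DESeq2, with 2 of the 10 (Tead3 and Amotl2) at an unadjusted p below 0.05, and 0.78% of all genes were called. The median log2 fold change of the 10 was -0.22 at 24 h, and at 48 h -0.10 in serum alone, -0.04 with LIF, -0.06 with PD03 and -0.14 with both, and that of all tested genes was within 0.01 of 0 in each. Soft and stiff libraries did not overlap for 4 of the 10 at 24 h, against 17.1% of all tested genes. At 48 h it was 4 in serum alone (20.4% of all genes), 2 with LIF (14.9%), 4 with PD03 (11.6%) and 7 with both (24.8%).

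**Figure D2:**
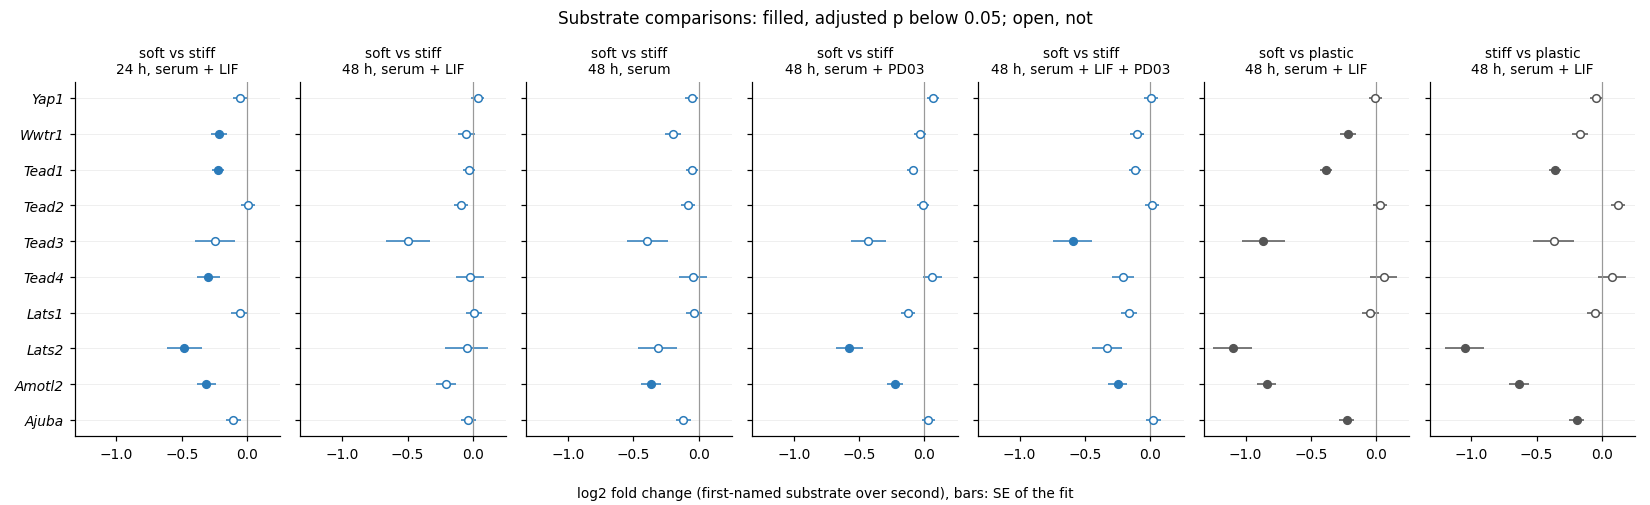
Log2 fold change (horizontal axis) of each of the 10 genes (rows) on soft against stiff gels in the 5 media and times, and on soft or stiff gels against plastic, 1 comparison per panel, with bars of 1 standard error and filled symbols for adjusted p below 0.05. Amotl2 is below 0 in every panel, while Yap1, Tead2 and Lats1 lie between -0.16 and 0.12 in all of them.

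Tissue culture plastic is far stiffer than either gel and was compared in serum + LIF at 48 h. Against plastic, 6 of the 10 were lower on the soft gel (11.8% of all genes called, 6.47% lower) and 4 were lower on the stiff gel (5.54% called, 3.59% lower), and none was higher. These comparisons share the plastic libraries. Gel and plastic libraries did not overlap for 6 of the 10 on soft (24.7% of all genes) and for 7 on stiff (22.7%). The median log2 fold change of the 10 was -0.22 for soft and -0.18 for stiff against plastic, with 0.00 over all genes in both. The fibroblast marker sum was 69.8 to 79.8 CPM on plastic, 32.8 to 39.9 CPM on stiff and 24.7 to 30.2 CPM on soft, and its part in these results was not tested. All plastic libraries were in pool 1 and all soft 48 h libraries of this medium in pool 3.

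PD03 changed most of the 10 transcripts, in a background in which more than 1 of 2 genes was called. On the soft gel 6 rose and 2 fell without LIF (57.5% of all genes called, 29% higher and 28.5% lower) and 6 rose and 1 fell with LIF (54.4%, 27.8% higher and 26.6% lower). On the stiff gel 6 rose and 2 fell without LIF (55.8%, 28.4% higher and 27.4% lower) and 7 rose and 2 fell with LIF (56.2%, 28.3% higher and 27.8% lower). The share of members called is to be read against these values. Libraries with and without PD03 did not overlap for 7, 8, 9 and 10 of the 10 in the same order. The shares over all genes were 50.6%, 57%, 61.1% and 62.9%. The median log2 fold change of the 10 was 0.41, 0.41, 0.37 and 0.50 in the same order, and the medians of all genes lay between -0.01 and 0.01. Primitive endoderm and trophectoderm markers moved with PD03 too. The 8 primitive endoderm markers summed to between 131 and 186 CPM in the libraries without PD03 and to between 569 and 760.3 CPM with it. That list did not move together. Col4a1 and Dab2 were called higher in all 4 comparisons and Gata6 on stiff, whereas Foxa2 and Sox7 were called lower in all 4, Gata4 in 3 and Pdgfra in 1, and the median log2 fold change of the list lay between -0.58 and 0.00. The 8 trophectoderm markers (Elf5 and Tpbpa below a mean of 1 CPM) summed to between 29.6 and 80.7 CPM without and between 136 and 241 CPM with PD03, with 5 or 6 of the 7 tested called higher and 1 lower in each comparison. The pluripotency sum was 1924 to 2652 CPM without and 3388 to 4001 CPM with PD03. Their part in the results for the 10 genes was not tested.

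Yap1 encodes the coactivator YAP and lies on chr9:7931999-8004596 (GRCm38, minus strand), sharing 116 exonic bases with the antisense transcript Gm20416. On the soft gel at 24 h its libraries read 122, 128 and 136 CPM, and on the stiff gel 127, 132 and 141 CPM. In serum + LIF at 48 h they read 136, 141 and 154 CPM on soft, 136, 141 and 143 CPM on stiff and 143, 144 and 145 CPM on plastic. Soft and stiff libraries overlapped at both times, and the stiff libraries lay just below all of plastic. No substrate comparison called Yap1 at any time or in any medium, with log2 fold changes from -0.05 to 0.07 between soft and stiff gels and edgeR adjusted p from 0.46 upward. With PD03 the level was somewhat higher, at 159, 162 and 163 CPM on the stiff gel in serum and at 159 to 179.8 CPM (median of 6 libraries between 167 and 169) on the soft gel. The log2 fold changes with PD03 were 0.25 ± 0.04 (SE; edgeR adjusted p = 3.25e-06) on soft and 0.13 ± 0.05 (adjusted p = 0.0279) on stiff without LIF, and 0.23 ± 0.05 and 0.26 ± 0.05 with LIF. The 0.13 on stiff was lost without stiff serum library 1 (0.10, adjusted p = 0.177) or library 3 (0.11, adjusted p = 0.116).

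Wwtr1 encodes TAZ, the paralogue of YAP, on chr3:57455649-57575910 (minus strand), and its transcript moved far more than that of Yap1. At 24 h the stiff gel gave 68.5, 69.0 and 69.6 CPM and the soft gel 56.7, 57.8 and 64.5 CPM, so the groups did not overlap. The log2 fold change was -0.22 ± 0.06 (edgeR adjusted p = 0.0324), and the call was lost on leaving out any library except soft library 1, with adjusted p up to 0.226. At 48 h in serum the stiff libraries read 54.2, 57.3 and 61.4 CPM and the soft libraries 49.5, 49.8 and 51.2 CPM, again without overlap, with a log2 fold change of -0.20 ± 0.06 and an adjusted p of 0.0546. In serum + LIF the soft (46.9, 56.3 and 58.2 CPM) and stiff (53.5, 54.7 and 59.1 CPM) gels overlapped, and the plastic libraries stood above both at 61.1, 61.6 and 64.8 CPM. Soft against plastic was called at -0.22 ± 0.06 (adjusted p = 0.0162), but without soft library 3 the value was -0.11 (adjusted p = 0.354), without plastic library 3 it was -0.17 (0.143), and without plastic library 1 it was -0.21 (0.0649). It was called in none of the 45 pool assignments, with adjusted p from 0.122 to 0.989.

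PD03 took Wwtr1 to a level that no library without it reached. The stiff gel read 132, 134 and 139 CPM in serum + PD03 and 135, 142 and 147 CPM in serum + LIF + PD03. The soft gel read 125 to 142 CPM over its 6 serum + PD03 libraries and 130.1, 132 and 133 CPM with LIF added. The log2 fold changes were 1.396 ± 0.05 on soft and 1.23 ± 0.06 on stiff without LIF, and 1.29 ± 0.06 and 1.34 ± 0.06 with LIF, with the highest edgeR adjusted p at 8.48e-24. In serum + PD03 the soft and stiff libraries overlapped, and with LIF added all soft libraries lay below all stiff ones, but Wwtr1 was not called on substrate in either medium. The balance of the coactivators shifted with PD03. Yap1 made up 49.9% ± 1.16 (SD, n = 3) of the summed RPKM of both genes on the stiff gel at 24 h, between 56.5% and 59.3% in the 48 h gel groups without PD03, and between 38.0% and 39.8% with PD03. The summed level rose from between 25.8 and 28.9 RPKM in the groups without PD03 to between 45.7 and 47.7 RPKM with it.

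Among the TEAD factors, Tead1 (chr7:112679318-112906807, plus strand) had the largest mean share in each group, at between 45.5% and 53.8% of the summed TEAD RPKM. Its library shares overlapped those of Tead2 on the stiff gel at 48 h, in serum (43.9% to 46.6% against 43.1% to 44.9%) and in serum + LIF (44.8% to 46.9% against 41.3% to 45.2%). These shares depend on the exon lengths used, 13.57 kb for Tead1 and 4.788 kb for Tead2. At 24 h Tead1 read 383, 411 and 418 CPM on the stiff and 335, 344 and 359 CPM on the soft gel, without overlap. The log2 fold change of -0.22 ± 0.05 (edgeR adjusted p = 0.00143) was kept on leaving out each of the 6 libraries, with adjusted p up to 0.0273. In serum + LIF at 48 h the gels were closer together, with 310.5, 335 and 346 CPM on stiff and 308, 325 and 339 CPM on soft. No comparison of gels at 48 h called Tead1. Its soft libraries did lie below all stiff ones in serum + PD03 (440.2 to 459 against 467 to 499 CPM). They also did in serum + LIF + PD03 (479 to 491 against 521 to 535 CPM). In serum + LIF at 48 h plastic stood above both gels at 406, 428 and 434 CPM. The log2 fold change against plastic was -0.39 ± 0.05 (edgeR adjusted p = 1.12e-08) for soft and -0.36 ± 0.05 (adjusted p = 1.61e-07) for stiff. With pool as a term, the stiff value was still called in each of the 45 assignments, whereas the soft adjusted p ran from 0.000249 to 0.374. PD03 raised Tead1 by 0.58 to 0.68 on the log2 scale in the 4 comparisons. With PD03 it read 467, 469 and 499 CPM on stiff and 440.2 to 459 CPM on soft in serum, above every library without PD03.

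Tead2, a TEAD factor expressed from early embryonic stages (chr7:45215753-45233644, plus strand, sharing 13 exonic bases with antisense Cd37), moved the other way in PD03. Without PD03 the 48 h gel libraries lay between 94.3 and 110.5 CPM, and with PD03 all lay between 82.5 and 96.1 CPM. The fall was -0.19 ± 0.05 on soft (edgeR adjusted p = 0.000335) and -0.27 on stiff (adjusted p = 3.42e-05) without LIF, and -0.22 on stiff with LIF (adjusted p = 0.000365). On soft with LIF the value was -0.11 with an adjusted p of 0.0699. No substrate comparison called Tead2, and its soft and stiff libraries at 24 h covered nearly the same values, 91.4 to 98.4 and 87.8 to 99.8 CPM. In serum + LIF at 48 h its libraries did separate, with 98.4, 101 and 106 CPM on soft and 97.1, 99.9 and 102 CPM on plastic below 108, 108 and 110.5 CPM on stiff.

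Tead3 (chr17:28331671-28350817, minus strand) was the least abundant TEAD, at between 96 and 296 reads per library. In serum + LIF + PD03 the stiff libraries read 11.7, 11.9 and 12.04 CPM and the soft libraries 5.83, 8.401 and 9.27 CPM. They did not overlap, and the log2 fold change was -0.59 ± 0.15 (edgeR adjusted p = 0.00724). Without soft library 3, it was -0.43 with an adjusted p of 0.115. In serum the stiff libraries (10.5, 10.5 and 10.8 CPM) again stood above the soft ones (7.64, 7.90 and 8.78 CPM), as they did in serum + LIF (8.18, 8.49 and 11.4 against 6.29, 6.74 and 7.09 CPM), but at -0.39 ± 0.15 (adjusted p = 0.16) and -0.49 ± 0.17 (adjusted p = 0.186) neither was called. In serum + PD03 the value was -0.43 ± 0.14 with an adjusted p of 0.0516, and DESeq2 called it (adjusted p = 0.0398). Against plastic, at 10.8, 12.4 and 13.3 CPM, the soft gel was lower at -0.86 ± 0.16 (edgeR adjusted p = 0.000109). The least favourable pool assignment gave -0.11 (adjusted p = 0.970) against plastic, and -0.33 (adjusted p = 0.705) for soft against stiff in the medium with LIF and PD03. Tead3 was not called in any of the 4 PD03 comparisons, where the values ran from -0.12 to 0.33.

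Tead4, the TEAD of the trophectoderm (chr6:128224288-128300823, minus strand), had the widest response of the family. At 48 h without PD03 its libraries read 12.8 to 17.2 CPM on gels and 14.2, 14.3 and 15.6 CPM on plastic, with no separation by substrate. At 24 h it stood at 29.4, 35.6 and 38.4 CPM on stiff and 26.3, 26.6 and 30.998 CPM on soft, so every 24 h library was above every 48 h library without PD03. With PD03 at 48 h it read 40.8, 41.6 and 42.3 CPM on stiff and 38.7 to 49.7 CPM on soft in serum. In serum + LIF + PD03 the soft libraries (38.6 to 45.7 CPM) lay just below the stiff ones (45.8 to 52.2 CPM), and the difference was not called. The log2 fold changes with PD03 were 1.72 ± 0.08 and 1.62 ± 0.10 without LIF on soft and stiff, and 1.48 ± 0.10 and 1.67 ± 0.09 with LIF, with edgeR adjusted p of at most 3.80e-19. From 24 h to 48 h in serum + LIF it fell by 1.15 on the log2 scale on stiff (SE 0.10, adjusted p = 1.07e-13) and by 0.88 on soft (SE 0.10, adjusted p = 2.36e-09). The 24 h substrate call, -0.30 ± 0.09 with an adjusted p of 0.0491 and overlapping libraries, was not kept under DESeq2 (adjusted p = 0.0651) or without stiff library 1 (0.182), stiff library 3 (0.344), soft library 1 (0.202) or soft library 2 (0.239).

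In the makeup of the TEAD family, Tead4 took 15.7% of the summed TEAD RPKM on stiff and 14.2% on soft gels at 24 h, 7.06% on plastic, and between 7.53% and 8.45% on gels at 48 h without PD03. With PD03 it took between 17.3% and 18.7%. Tead2 went the opposite way, from between 42.2% and 43.8% on gels at 48 h without PD03 to between 26.3% and 28.7% with it. Tead3 contributed between 1.70% and 3.14% in all groups, and the summed TEAD level was 47.9 to 61.0 RPKM without and 64.6 to 73.9 RPKM with PD03.

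**Figure D3:**
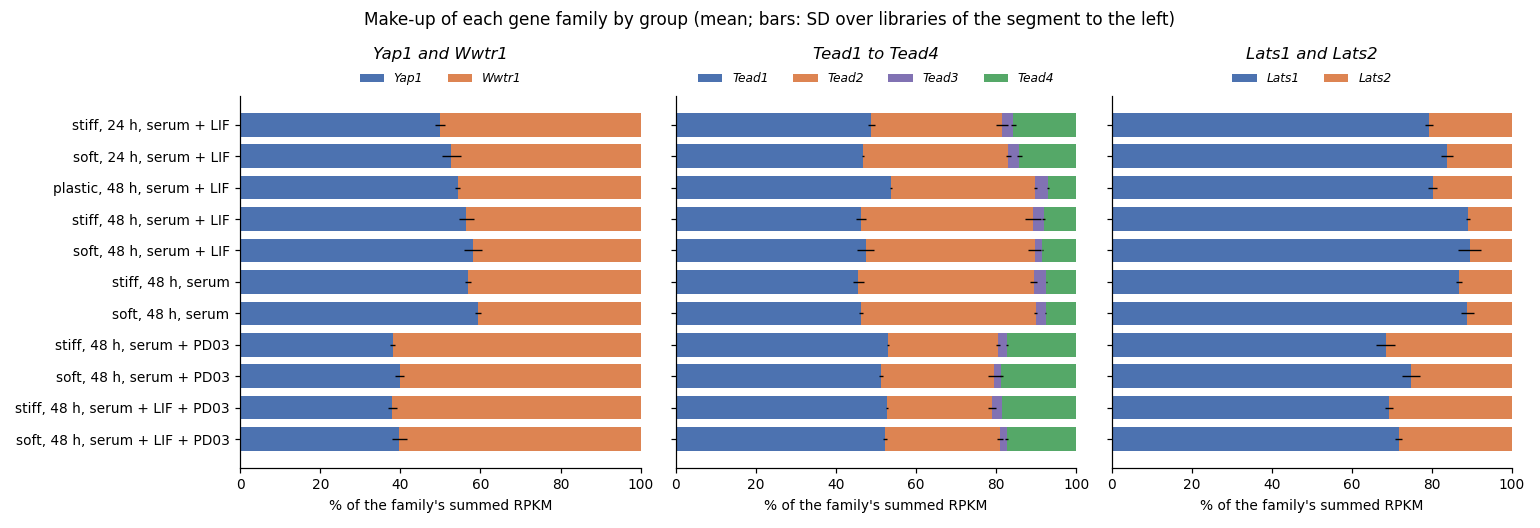
Stacked bars give the mean share of each member (horizontal axis, percent of the summed RPKM of its family) within the coactivator, TEAD and LATS families in the 11 groups (rows), with error bars of 1 SD over libraries for the segment to their left. In the groups with PD03 the shares of Wwtr1, Tead4 and Lats2 are larger, with Tead4 at 17.3% to 18.7% of the TEAD sum and Lats2 at 25.3% to 31.5% of the LATS sum.

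The LATS kinases phosphorylate YAP and TAZ, and LATS2 is itself a known transcriptional target of YAP. Lats1 (chr10:7681214-7716460, plus strand) was the steadiest of the 10. Its libraries ran from 36.4 to 39.6 CPM at 24 h and from 34.96 to 44.8 CPM at 48 h, and no comparison of substrate, plastic or time called it. Its soft libraries did lie below all stiff ones in serum + PD03 (34.96 to 40.03 against 40.5 to 42.4 CPM). They also did in serum + LIF + PD03 (37.5 to 40.9 against 43.5 to 44.8 CPM). The lowest edgeR adjusted p of Lats1 between soft and stiff gels was 0.0962. In PD03 the stiff gel with LIF was called at 0.17 ± 0.06 (edgeR adjusted p = 0.0148), and this was lost without stiff serum + LIF library 3 (0.14, adjusted p = 0.108). The other PD03 values of Lats1 were between -0.03 and 0.06.

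Lats2 (chr14:57689662-57758388, minus strand) had the widest range of the 10 and the fewest reads, and 2955 of its exonic bases are shared with the overlapping annotation Gm49361, which had no row in the count table. At 24 h it read 8.54, 9.996 and 10.4 CPM on stiff and 5.92, 7.06 and 7.68 CPM on soft, without overlap. The log2 fold change was -0.48 ± 0.14 (edgeR adjusted p = 0.0319), and it was lost without stiff library 2 (adjusted p = 0.115), stiff library 3 (0.162), soft library 1 (0.188) or soft library 3 (0.0884). In serum + LIF at 48 h the soft libraries spread from 3.14 to 5.64 CPM around the stiff values of 4.50, 4.52 and 4.83 CPM, and the value was -0.05 ± 0.16. In serum the groups separated (5.34, 5.98 and 6.02 CPM on stiff and 4.28, 4.54 and 5.19 CPM on soft), but -0.31 ± 0.15 was not called (adjusted p = 0.284).

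With PD03 Lats2 was higher and the gels stood further apart in CPM. In serum + PD03 the stiff libraries read 17.2, 17.6 and 20.1 CPM and the 6 soft libraries 11.1 to 14.7 CPM, with a median between 11.7 and 11.8 CPM. Every soft library was below every stiff one, and the log2 fold change was -0.57 ± 0.10 (edgeR adjusted p = 7.35e-05). With pool as a term the adjusted p ran from 0.000822 to 0.0905 over the 45 assignments. In serum + LIF + PD03 the values were 17.6, 18.9 and 19.7 CPM on stiff and 14.3, 14.7 and 15.6 CPM on soft, also separate, and -0.33 ± 0.11 had an adjusted p of 0.0662 in edgeR and was called by DESeq2 (adjusted p = 0.04999). The increase with PD03 was 1.39 ± 0.12 and 1.74 ± 0.14 on soft and 1.65 ± 0.13 and 2.02 ± 0.14 on stiff, without and with LIF, and was called in all 4. Against plastic (8.17, 10.1 and 10.4 CPM) both gels were lower at 48 h, soft at -1.10 ± 0.15 (adjusted p = 1.46e-07) and stiff at -1.05 ± 0.15 (adjusted p = 7.30e-07). With pool as a term the stiff value was called in every assignment, whereas the soft value was lost at the least favourable one (-0.76, adjusted p = 0.269). Lats2 made up 10.6% to 13.2% of the summed LATS RPKM on gels at 48 h without PD03, 19.7% on plastic and 25.3% to 31.5% with PD03.

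Amotl2 encodes angiomotin-like 2, which binds YAP and TAZ at junctions and holds them out of the nucleus, and it is also a known YAP target (chr9:102716672-102733418, plus strand). It was the member called on substrate most often, in 4 of the 5 comparisons of soft with stiff gels. At 24 h the stiff libraries read 167, 170.0 and 202 CPM and the soft libraries 118, 157 and 159.9 CPM. The groups did not overlap, and the log2 fold change of -0.31 ± 0.07 (edgeR adjusted p = 0.00481) was lost without stiff library 2 (-0.22, adjusted p = 0.163) or soft library 3 (-0.17, adjusted p = 0.214).

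In serum at 48 h Amotl2 read 122, 127 and 135 CPM on stiff and 98.7, 98.97 and 100.2 CPM on soft. The soft libraries lay close together below all stiff ones, at -0.36 ± 0.07 (edgeR adjusted p = 0.000685). In serum + PD03 the stiff libraries read 265, 269.7 and 286 CPM and the soft ones 221 to 246 CPM, at -0.23 ± 0.06 (adjusted p = 0.0129), lost without stiff library 1 (adjusted p = 0.135). In serum + LIF + PD03 the values were 286, 289 and 292 CPM against 233, 243 and 253 CPM, at -0.25 ± 0.07 (adjusted p = 0.0152), lost without stiff library 2 (0.0666), soft library 1 (0.0965) or soft library 3 (0.0545). Only in serum + LIF at 48 h did the libraries overlap (109.6, 113 and 117 on stiff and 87.6, 97.1 and 111 CPM on soft), where -0.20 ± 0.08 had an adjusted p of 0.246. With pool as a term, the highest adjusted p over the assignments was 0.275 in serum alone, 0.341 with PD03 and 0.538 with LIF and PD03.

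The fibroblast marker sum was lower on soft at each time and in each medium, also in serum + LIF at 48 h, where Amotl2 was not called. It was 50.8 to 58.0 CPM on stiff and 24.1 to 35.8 CPM on soft at 24 h, and 47.2 to 53.5 against 22.4 to 29.7 CPM in serum. In serum + LIF at 48 h it was 32.8 to 39.9 against 24.7 to 30.2 CPM. In serum + PD03 it was 67.3 to 77.6 against 30.2 to 41.5 CPM, and in serum + LIF + PD03 85.2 to 91.5 against 27.4 to 41.3 CPM. As a mean over all libraries, 5 of its 8 genes were below 1 CPM. The trophectoderm sum was also lower on soft, at 49.3 to 54.97 against 75.8 to 80.7 CPM at 24 h and 33.2 to 37.6 against 46.3 to 49.4 CPM in serum. Its libraries overlapped in serum + LIF at 48 h, at 29.6 to 41.1 against 40.6 to 50.8 CPM. With PD03 it was 136 to 148 against 189 to 203 CPM, and with LIF and PD03 156 to 161 against 221 to 241 CPM. The primitive endoderm sum was lower on soft at 24 h (137 to 141 against 181 to 186 CPM) and in both media with PD03. Its libraries overlapped in the other 48 h media. The pluripotency sum was higher on soft at each time and in each medium, at 2319 to 2652 against 2108 to 2153 CPM at 24 h. Their part in the substrate results was not tested.

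Plastic gave the highest Amotl2 level among the 48 h groups without PD03, at 164, 179.6 and 184 CPM. Soft was lower than plastic at -0.84 ± 0.07 (edgeR adjusted p = 1.34e-12) and stiff at -0.63 ± 0.07 (adjusted p = 7.40e-09), and both were called in every pool assignment. PD03 raised Amotl2 by 1.23 ± 0.06 and 1.10 ± 0.07 without LIF on soft and stiff, and by 1.30 ± 0.07 and 1.35 ± 0.07 with LIF. From 24 h to 48 h in serum + LIF it fell by 0.55 on the log2 scale on soft and by 0.66 on stiff.

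Ajuba (chr14:54567472-54577558, minus strand) was lower in PD03, opposite in direction to Amotl2. In serum the soft gel gave 171, 179 and 188 CPM without PD03 and 140.4 to 158 CPM with it, and the stiff gel 184, 189 and 211 CPM without and 139, 145 and 145 CPM with it. The groups did not overlap, as was so for 50.6% of all tested genes on soft and 61.1% on stiff. The log2 fold changes were -0.30 ± 0.05 (edgeR adjusted p = 6.65e-07) on soft and -0.45 ± 0.06 (adjusted p = 3.19e-09) on stiff. With LIF they were -0.31 ± 0.06 and -0.37 ± 0.06. On gels it was not called by substrate, with -0.11 ± 0.06 at 24 h (adjusted p = 0.403). Plastic had the highest mean, with 194, 209 and 214 CPM, and soft (165, 172 and 191 CPM) was lower at -0.23 ± 0.06 (adjusted p = 0.00489) and stiff (173, 180.1 and 187 CPM) at -0.19 ± 0.06 (adjusted p = 0.0345). The stiff call was lost without any 1 of 5 of the 6 libraries, all but plastic library 2 (adjusted p up to 0.214). The soft call was lost without plastic library 1 (0.0586) or 3 (0.0882), or without soft library 1 (0.0669) or 3 (0.119). Both were called in none of the pool assignments, with adjusted p from 0.100 to 0.962 for soft and from 0.120 to 0.624 for stiff.

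**Figure D4:**
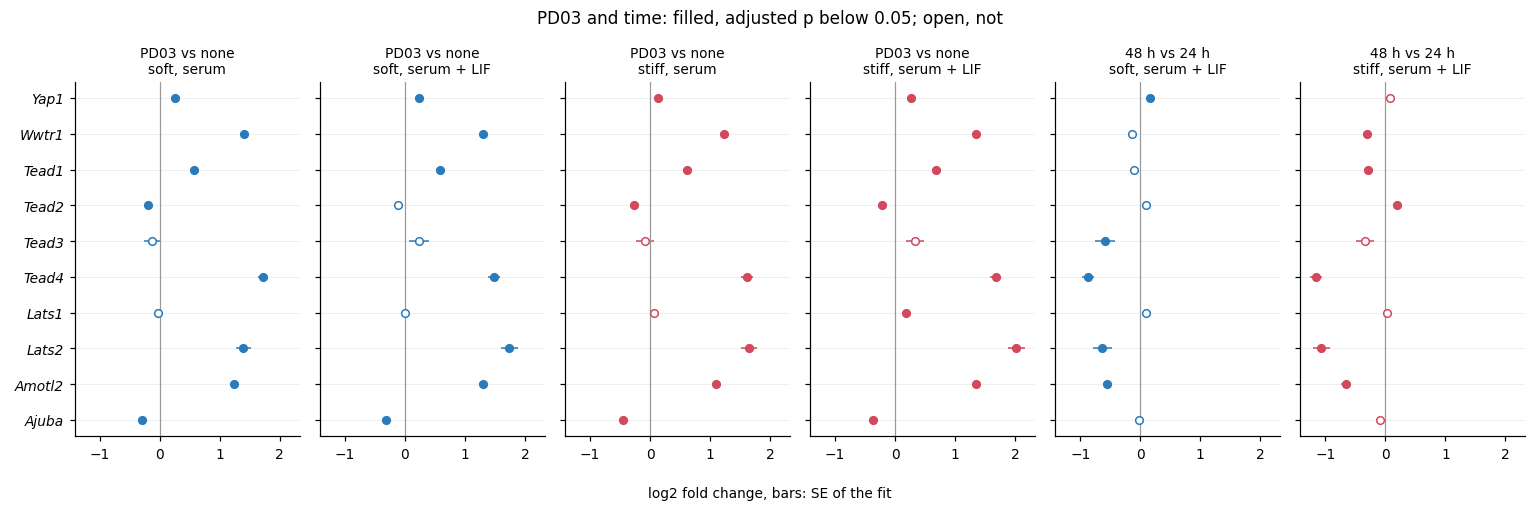
Log2 fold change (horizontal axis) of each of the 10 genes (rows) for PD03 against none in the 4 pairs of 48 h groups and for 48 h against 24 h on each gel, with bars of 1 standard error and filled symbols for adjusted p below 0.05. With PD03 the values of Wwtr1, Tead4, Lats2 and Amotl2 all exceed 1, those of Ajuba lie between -0.45 and -0.30, and Tead4, Lats2 and Amotl2 are below 0 with time on both gels.

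Between 24 h and 48 h in serum + LIF, 4 of the 10 fell and 1 rose on the soft gel (24.4% of all genes called, 11.4% lower and 12.9% higher), and 5 fell and 1 rose on the stiff gel (25.6%, 13% lower and 12.6% higher). The median log2 fold change of the 10 was -0.12 on soft and -0.30 on stiff, against -0.03 and -0.01 over all genes. Libraries of 24 h and 48 h did not overlap for 6 of the 10 on soft (33.7% of all genes) and for 7 on stiff (38.2%). Tead4 and Amotl2 fell on both gels, as given for each. Lats2 fell by 0.64 on the log2 scale on soft (SE 0.16, edgeR adjusted p = 0.00174) and by 1.07 on stiff (SE 0.14, adjusted p = 7.35e-08). Wwtr1 (-0.31 ± 0.06, adjusted p = 9.44e-05) and Tead1 (-0.29 ± 0.05, adjusted p = 3.06e-06) fell on stiff, Tead3 fell on soft (-0.59 ± 0.17, adjusted p = 0.0074), Yap1 rose on soft (0.16 ± 0.05, adjusted p = 0.0198) and Tead2 rose on stiff (0.19 ± 0.05, adjusted p = 0.00578). On the soft gel every 24 h library was in pool 1 and every 48 h library in pool 3, so time and pool cannot be told apart there. On the stiff gel, where 1 library of 48 h shared a pool with the 24 h ones, Tead4, Lats2, Amotl2 and Tead1 were called in every assignment. Without 1 library, the call on soft was lost for Yap1 (24 h library 3, adjusted p = 0.133, or 48 h library 2, 0.212), Tead3 (24 h library 1, 0.0761) and Lats2 (48 h library 3, 0.0517), and on stiff for Tead2 (24 h library 3, 0.0988).

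The addition of LIF gave no call among the 10 on either gel, with or without PD03, in edgeR or DESeq2. At an unadjusted p below 0.05 there were 2 (Tead1 and Tead4) on soft without PD03, 3 (Tead1, Tead2 and Lats2) on soft with PD03, 2 (Lats2 and Amotl2) on stiff without PD03 and 2 (Tead1 and Tead4) on stiff with PD03. The background was also low, with 0.0169%, 0.107%, 1.41% and 0.514% of all genes called in the same order. Whether the substrate effect itself differed between media was tested with interaction terms. None of the 10 was called for PD03 against none without LIF (0.797% of all genes called) or with LIF (1.07%), for LIF against none without PD03 (0.0847%) or with PD03 (0.00565%), or for 48 h against 24 h (0.254%), in edgeR or DESeq2. At an unadjusted p below 0.05 these gave 1 (Wwtr1), 0, 0, 1 (Tead4) and 2 (Tead1 and Lats2) of the 10. A substrate call in one medium and not in another is therefore not shown to be a difference between the media.

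The rest of the pathway was read from 4 lists. Their 48 h substrate calls carry the same limit of pool, and the pool term was not evaluated for these genes. With that term, calls over all tested genes at 48 h fell from 858 to between 173 and 384 in serum alone. They fell from 138 to between 0 and 41 with LIF, from 982 to between 276 and 678 with PD03, and from 1348 to between 246 and 724 with both. Of 7 genes of the core cascade (Stk3, Stk4, Sav1, Mob1a, Mob1b, Stk38 and Stk38l), 1 was called between soft and stiff gels, and only in serum (4.85% of all genes called), where Stk38, the NDR1 kinase related to LATS, was higher on soft (0.33 ± 0.05, edgeR adjusted p = 1.53e-05). The median of the 7 lay between -0.07 and 0.08 in the 5 comparisons. PD03 raised Stk3, which encodes the kinase MST2, by 0.82 to 1.04 on the log2 scale and lowered Stk4, which encodes MST1, with values from -0.38 to -0.27, each called in all 4 comparisons. Stk38 rose by 0.15 to 0.47.

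Of 14 upstream regulators, soft against stiff called 1 higher and 1 lower at 24 h. At 48 h it called 2 higher and 3 lower in serum alone, 1 higher with LIF, 3 lower with PD03 and 2 lower with both. Of all tested genes 3.55% were called at 24 h and, in the same order at 48 h, 4.85%, 0.78%, 5.55% and 7.61%, which is also the background for the lists that follow. Dchs1 and Fat4, the protocadherins that form a ligand and receptor pair, were each called lower on soft in 1 medium, Dchs1 in serum + PD03 (-1.02 ± 0.23, edgeR adjusted p = 0.00266) and Fat4 in serum + LIF + PD03 (-1.03 ± 0.29, adjusted p = 0.0162). Map4k5, one of the MAP4K kinases that can act on LATS, was lower in serum (-0.24 ± 0.06) and serum + PD03 (-0.15 ± 0.05). With PD03, Frmd6, a FERM-domain protein of the apical membrane, rose by 1.68 to 2.05 and Wwc2, of the KIBRA family, by 1.42 to 1.55 on the log2 scale. Dchs1 fell with values of -1.16 and -1.18 on soft and -0.70 on stiff without LIF, and its -0.50 on stiff with LIF was not called.

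Of 9 other genes that bind YAP or TEAD, 8 were tested. On soft against stiff gels 4 were lower at 24 h and, at 48 h, 4 in serum alone, 1 with LIF, 4 with PD03 and 5 with both, and none was higher, with medians from -0.45 to -0.14. Amot, which encodes angiomotin, the paralogue of AMOTL2, was lower on soft at 24 h (-0.66 ± 0.08, edgeR adjusted p = 7.61e-09) and at 48 h in serum alone (-0.37 ± 0.07), with PD03 (-0.78 ± 0.06) and with LIF and PD03 (-1.03 ± 0.07), and read -0.02 ± 0.07 with LIF. Its substrate effect differed between media by interaction, by -1.01 ± 0.10 with PD03 against without in the presence of LIF (adjusted p = 9.81e-10) and by -0.42 ± 0.09 in its absence (adjusted p = 0.0148), whereas no interaction was called for Amotl2. Vgll3, a TEAD cofactor, was lower on soft in 4 of the 5 comparisons (-0.65 to -0.43 where called, -0.30 in serum + LIF) and rose with PD03 by 1.78 to 2.19 on the log2 scale. Vgll4, a TEAD cofactor that competes with YAP, rose with PD03 by 1.23 to 1.71. Vgll1, another TEAD cofactor, had group means from 0.065 to 0.438 CPM without PD03 and from 2.08 to 4.61 CPM with it, and a fold change is not given since some libraries had no read.

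Of 19 genes listed as YAP targets, soft against stiff called 9 lower at 24 h and, at 48 h, 8 in serum alone, 2 with LIF, 7 with PD03 and 10 with both, and none higher. Their median log2 fold change was -0.43, -0.23, -0.09, -0.28 and -0.26 in that order. Tgfb2, a ligand of the TGF-beta family, was lower on soft in all 5, from -1.33 to -0.65. Ankrd1, a nuclear ankyrin-repeat protein, and Rbms3, an RNA-binding protein, had low levels, and on soft against stiff in serum + LIF + PD03 they read 0.64 ± 0.471 against 1.79 ± 0.297 and 0.675 ± 0.238 against 2.60 ± 0.373 CPM (mean ± SD, n = 3 each), with edgeR adjusted p of 0.0338 and 0.002. With PD03, 10 to 14 of the 19 rose and 4 fell in each comparison, beside 27.8% to 29% of all genes called higher and 26.6% to 28.5% lower. Myof, which encodes the membrane protein myoferlin, rose by 2.75 to 2.98 on the log2 scale, and Fjx1, the four-jointed kinase homologue, fell, with values from -2.17 to -1.62.

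**Figure D5:**
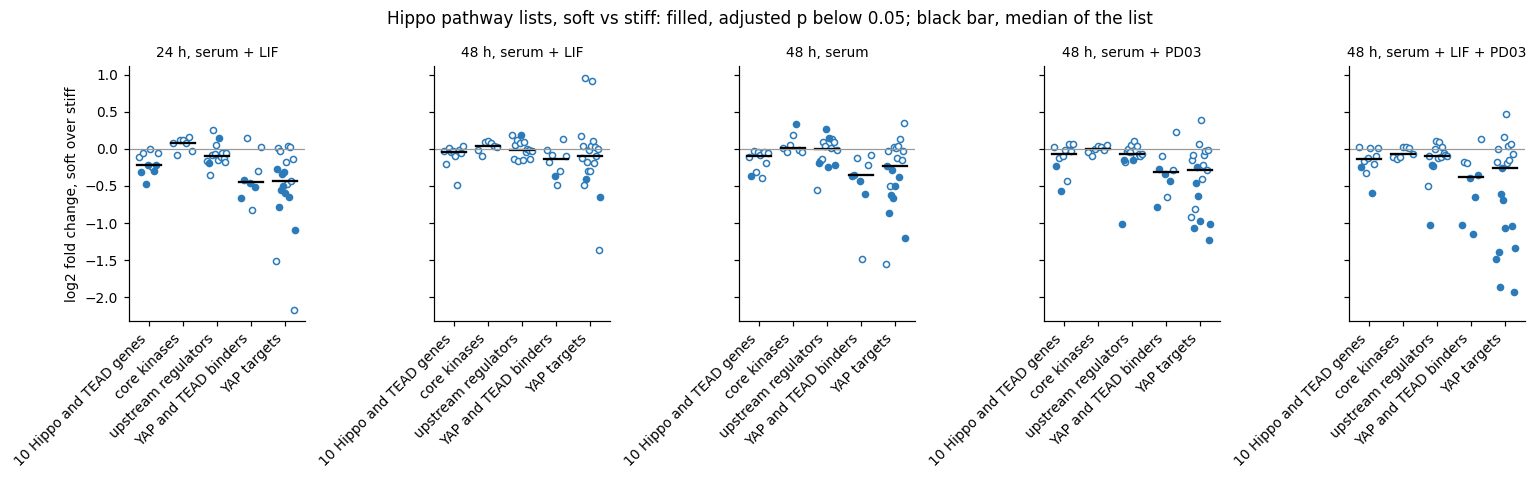
Log2 fold change on soft against stiff gels (vertical axis) of every tested gene (points) of the 10 genes and of the 4 other Hippo lists (horizontal axis), 1 panel for each medium and time, with filled points for adjusted p below 0.05 and a black bar at the median of the list. The medians of the lists of YAP and TEAD binding genes and of YAP targets lie between -0.45 and -0.09, whereas those of the core cascade stay between -0.07 and 0.08.

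For the 4 members with the widest range, the tested genes of at least 5 CPM with the most similar profile of group means were found from the root mean square difference of centred log2 CPM over the 11 groups, among 10474 candidates. For Lats2 these were Cyp1b1, a cytochrome P450 (0.135), Lif, the cytokine gene itself (0.158), and Adgra2, an adhesion receptor (0.170). For Tead4 they were the transcription factor gene Zbtb7b (0.169), Wnt7b (0.181) and Pm20d1 (0.194). The nearest to Amotl2 were genes of the actin cytoskeleton and its adhesions, namely Myh9 (0.0850), Tpm4 (0.0888) and Tln1 (0.0903). For Wwtr1 they were the scaffold gene Iqgap1 (0.0602), Cers2, a ceramide synthase (0.0715), and Map4, which encodes a microtubule-associated protein (0.0831). Groups that share a pool may not be independent of each other, and these values are descriptions of likeness over 11 points.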

How the data were processed

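RNA of cultured mESCs was made into 36 libraries with a NuGen kit. The authors aligned reads to mouse GRCm38/mm10 with STAR 2.5.2a, per the submitters' processing notes, and counted them per Ensembl gene with HTSeq. The deposited values are raw counts per gene and library. The strand setting and the treatment of reads with several alignments are not given in the sources used here, so reads of overlapping or antisense genes cannot be separated. Columns name a group and no replicate number, so libraries are numbered by column order within a group.

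Identifiers were matched to symbols with a GENCODE annotation of GRCm38 (49412 of 49671), which also gave coordinates and exon lengths. Genes passing filterByExpr in edgeR 4.0.16 (R 4.3.3) numbered 17702 and held 99.92% of the counts. CPM were scaled by TMM. A quasi-likelihood model with 1 coefficient per group over all libraries gave every contrast, and p-values were adjusted by Benjamini-Hochberg over all tested genes at a threshold of 0.05. Tested on simulated counts for the 24 h comparison (17702 genes, 200 changed), the fit recovered 79.6% of genes changed by 1 and 93.1% of those changed by 2 on the log2 scale, with 6.49% of 185 calls false. Smaller changes, such as those of the members called at 24 h (-0.48 to -0.22), and differences between pools were not simulated. Over the 45 pairs of libraries within the groups of 3 and 6, chi-square per gene was 2.22 to 13.4, so no pair agreed within sampling noise. The alternatives were RLE scaling, total count scaling, no filter on low counts, DESeq2 1.42.0, a fit on only the groups compared, a pool term and leaving out each library. Named genes beyond the 10 were, per list, the 3 with the largest mean absolute log2 fold change among genes called in at least 1 substrate comparison, the 3 likewise for PD03, and the 3 most similar in profile to each of the 4 members of widest range. The members and lists were chosen with earlier results of these data known.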

Additional observations from a re-analysis of the deposited data

Results flagged for a closer look

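In the soft serum + PD03 group, the only one with more than 3 libraries, Ajuba had 1 library apart from the others, at 158 CPM with the next at 145 CPM and the lowest at 140.4 CPM. The gap was 0.709 of the range of the 6 libraries, above Dixon's 95% critical value for that number. Of the 10 genes tested in this way 1 stood out, where chance gives about 1 in 20. Leaving out any single library kept Ajuba called as lower with PD03 in all 4 comparisons.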

How the results depend on the processing

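No paired analysis was possible because the columns carry no replicate number. Of the 63 values of members that were called, 61 kept their direction and side of the threshold under RLE scaling, 58 under total count scaling, 60 without the filter, 62 under DESeq2 and 58 with only the groups compared. With pool as a term 43 kept it at the least favourable of the 45 assignments, 19 were lost and 1 reversed, Tead3 at 48 h against 24 h on soft (0.00286 in place of -0.59). Over 408 values with 1 library left out, 368 kept it and 40 lost it. The PD03 calls of Wwtr1, Tead1, Tead4, Lats2, Amotl2 and Ajuba were kept under every alternative run. The cause of the losses was not tested, but leaving out libraries or groups also reduces the samples.

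The count of members called between soft and stiff at 24 h was 5, and became 3 under RLE scaling, 2 under total count scaling, 2 with only the groups compared and 2 to 3 with 1 library left out. Over all tested genes the calls were 628, and 615, 673, 466 and 416 to 522 in the same order. In serum at 48 h the count of members was 1, and became 2 under DESeq2, 0 at the pool assignment with the fewest calls and 1 to 2 with 1 library left out. All tested genes gave 858 calls, 958 under DESeq2, 173 to 384 over the pool assignments and 546 to 686 with 1 library left out. In serum + PD03 the count of members was 2, and became 4 with only the groups compared, 3 under DESeq2, 0 at the pool assignment with the fewest calls and 1 to 3 with 1 library left out. The calls over all genes were 982, and 1142, 1092, 276 to 678 over all pool assignments and 520 to 954 in the same order. In serum + LIF + PD03 the count of members was 2, and became 3 under DESeq2 and with only the groups compared (Lats2 added), 0 at the pool assignment with the fewest calls and 0 to 2 with 1 library left out. Calls over all genes were 1348, and 1444, 1514, 246 to 724 over all pool assignments and 905 to 1122 in the same order. Soft against plastic gave 6 members, and 1 at the pool assignment with the fewest calls. All genes went from 2083 calls to between 126 and 445 over the pool assignments. LIF on stiff with PD03 gave 0 members, and 2 (Tead1 at 0.14 and Tead4 at 0.25) with only the groups compared, where calls over all genes went from 91 to 417. On soft, 48 h against 24 h gave 5 members, and between 0 and 3 over the pool assignments. There the calls over all genes went from 4315 to between 345 and 813. The log2 range of Yap1 over groups was 0.39, and 0.33 under total count scaling. Depth limits Tead3 and Lats2 most, with as few as 96 and 48 reads per library.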
